A study of Danio rerio with 25 samples.

Results

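MiR-203a, miR-203b and miR-205 are the microRNAs of the skin small-RNA table numbered miR-203 or miR-205, any letter or copy. They are 3 of the 346 hairpins listed, each with a single row, and all 3 were among the 258 hairpins with enough counts to be tested. Small RNA of male zebrafish (Danio rerio) skin was sequenced at 5 ages with 5 libraries each. Skin of 6 months came from the wild-type cross AB JxTü without a transgene, skin of 12 months from that cross with Tg(flk:mCherry), and skin of 24 months again from the cross without a transgene. Skin of 36 months carried Tg(pu.1:GFP) and skin of 42 months Tg(wt1a:GFP). The flk promoter is known from endothelium, pu.1 from myeloid blood cells and wt1a from the kidney. Age and strain label therefore cannot be told apart except at 24 against 6 months, where the labels are the same. Separate fish per library are not stated in words, so p-values measure the spread between libraries, which may in part be technical.

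A microRNA is cut from a hairpin transcript and guides the silencing of messenger RNAs that pair with its seed. MiR-203 is known from mammalian epidermis, where it marks keratinocytes that have left the basal layer and represses the basal-layer factor p63, and in zebrafish it is known to repress lef1 during fin regeneration. MiR-205 is known in mouse from basal keratinocytes and hair follicle progenitors, and with the miR-200 family it represses the Zeb factors that switch off epithelial genes. Counts were given per hairpin, so the arms of a hairpin are not separated here. The samples are whole skin, and fewer keratinocytes and less of a microRNA per keratinocyte cannot be told apart.

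In the RefSeq gene table of the assembly GRCz12tu, used for names and neighbours only, the zebrafish miR-203 genes sit beside paralogous kinesin genes. The gene of miR-203a lies between the protein-coding genes aspg and kif26ab. The gene of miR-203b lies after tmem179aa, and kif26aa is the third protein-coding gene on its other side. MiR-205 lies within the span of plxna2, a semaphorin receptor gene. Because miR-203a and miR-203b are paralogues and no source used here describes the counting step, reads that match both hairpins could have been assigned to either, and their separate levels are uncertain to that extent.

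The libraries held between 683884 and 5206505 reads on hairpins. The lowest total belonged to 42 months replicate 2, which also stood apart in miR-205, and results that rest on it are given with and without it. Levels are given as CPM, reads per 1000000 after TMM, which corrects the library total for its composition. Calls are adjusted p-values under 0.05 from edgeR's quasi-likelihood test over all 258 hairpins. Of the epithelial list (miR-31, miR-96, miR-141, miR-182, miR-183, miR-184, the miR-200 family and miR-429), all 12 hairpins besides miR-203 and miR-205 had counts. So had every hairpin of the lists for muscle, leukocytes, erythrocytes, endothelium, pigment cells, mesenchyme and neurons. Only 38 of the 346 hairpins had no count in any library, so having counts says little about which cell types contributed. Some lists are narrow. The pigment cell list held only miR-204-1 and miR-204-2, which are copies. The endothelial list held only miR-126a and miR-126b, and the erythroid list only miR-144 and miR-451.

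MiR-205 and miR-203b were abundant in skin and miR-203a was far less frequent than its paralogue. MiR-205 averaged 58863 ± 29113 CPM (SD, n = 25 libraries), which ranked 4 among 217 microRNA names with copies summed. MiR-203b averaged 26324 ± 7307 CPM and ranked 14, and miR-203a averaged 2825 ± 722 CPM and ranked 43. Together the members took 8.70% ± 2.59 of all reads on hairpins, between 5.05% and 17.5% of a library. The fewest reads of a member in any library were 52457 for miR-205, 16493 for miR-203b and 1522 for miR-203a, so that counting error was at most 0.437%, 0.779% and 2.56% of a value. Levels of different microRNAs can also differ in how well a kit captures them, so ratios between members are compared across libraries and not read as amounts.

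MiR-203b was the only member whose level passed the test among the ages. Skin of 6 and 36 months held the most of it, and skin of 12, 24 and 42 months held less. At 6 months the libraries held 29194, 34294, 29307, 39224 and 36999 CPM (mean 33803 ± 4508, SD, n = 5). At 12 months they held 21961.5, 24501, 25919.6, 16993 and 24434 CPM (mean 22762 ± 3526). All 5 libraries of 12 months thus lay below all 5 of 6 months.

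At 24 months miR-203b was at 13416, 24425, 22071, 15807 and 22538 CPM (mean 19651 ± 4760), the lowest mean of the 5 ages. At 36 months it was at 24490.1, 28735, 43199, 31311 and 34367 CPM (mean 32420.3 ± 7030). At 42 months it was at 24404, 27502, 22295, 23357 and 17365 CPM (mean 22985 ± 3695). Every library of 36 months lay above every library of 24 months, by a margin of only 24490.1 against 24425 CPM at the nearest pair, while the ranges of 36 and 42 months overlapped.

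Over the 5 ages the difference of miR-203b passed edgeR's test with an adjusted p of 0.00253, which held in every alternative setting and without any single library. MiR-203a (adjusted p = 0.154) and miR-205 (adjusted p = 0.458) did not pass. One member of 3 is close to the background, since 38.4% of all hairpins were called for any difference among ages. A straight line over age missed this pattern, and none of the 3 slopes passed in edgeR, DESeq2 or limma-voom, against 25.2% of all hairpins called for a trend. The slope of miR-203b was -0.05 log2 per 12 months (95% interval -0.19 to 0.09, unadjusted p = 0.445). That of miR-203a was 0.02 (-0.11 to 0.14, unadjusted p = 0.779) and that of miR-205 was -0.02 (-0.22 to 0.19, unadjusted p = 0.861).

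**Figure D1:**
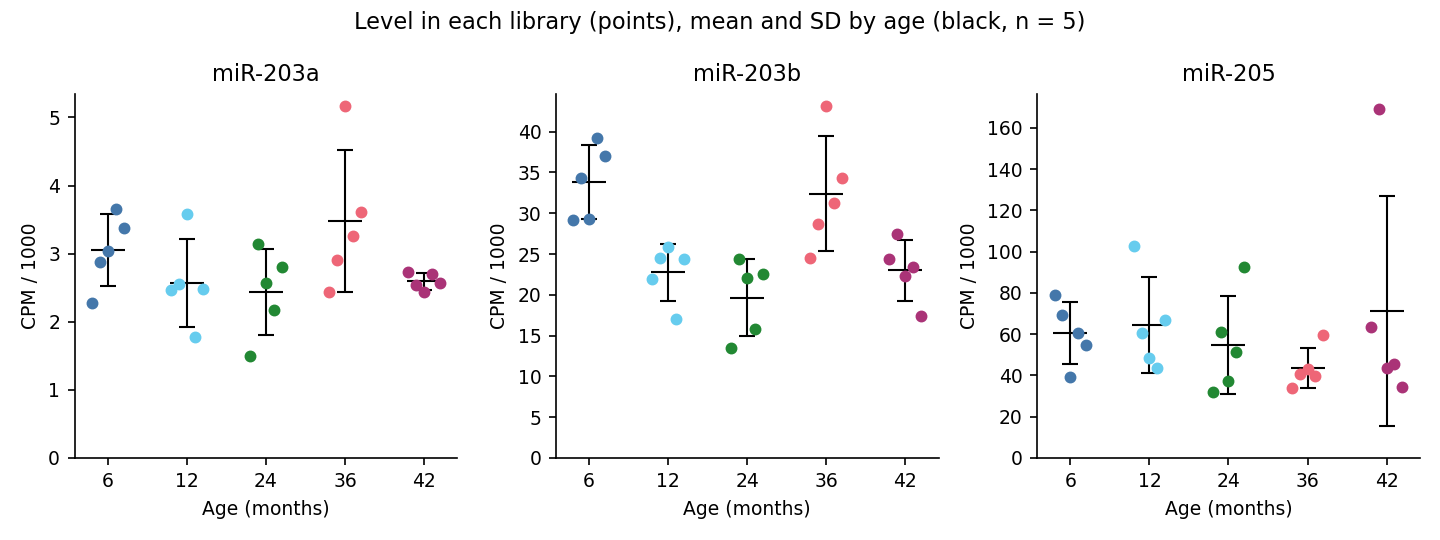
Level (CPM divided by 1000) of miR-203a, miR-203b and miR-205 in each of 25 skin libraries against age in months, with the mean and SD of each age (n = 5). MiR-203b is highest at 6 and 36 months (means 33803 and 32420.3 CPM), miR-203a has its highest mean at 36 months (3477 CPM), and miR-205 spreads widely with 1 library of 42 months at 169039 CPM.

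Between skin of 24 and 6 months, the ages with the same strain label, miR-203b fell. Its mean was 19651 CPM at 24 months and 33803 CPM at 6 months, a log2 change of -0.78 ± 0.17 (SE, adjusted p = 0.00205 in edgeR) or 0.58 times the level, with a 95% interval of 0.45 to 0.75 times. The 5 libraries of 24 months lay below the 5 of 6 months without overlap. At this pair 16.3% of all hairpins were called lower and 12% had ranges that lay lower without overlap. The call held in every alternative setting and without any single library. Beside it, the summed level of the pigment cell list was 40689 ± 5629 CPM at 24 and 30903 ± 6696 CPM at 6 months (ranges 31183 to 45155 and 24498 to 42006), that of the mesenchymal list 41293 ± 9277 and 34912 ± 3580.0 CPM (26994 to 49168 and 30746 to 40004), and that of the endothelial list 8326 ± 2350 and 6279 ± 1534 CPM (4392 to 10199 and 3931 to 8122). The leukocyte list was at 3029 ± 853 and 3957 ± 609 CPM (2004 to 3878 and 3055 to 4634), and the skeletal muscle list at 10729 ± 3304 and 9255 ± 2629 CPM (5053 to 13641 and 5267 to 11902). Erythroid means were 2549 and 2305 CPM and neural means 1695 and 1570.4 CPM. The epithelial list without miR-203 and miR-205 was at 31363.5 ± 9572 and 36509 ± 2332 CPM (20191 to 42253 and 33150 to 39627). Its largest parts, miR-184-2 and miR-184-1, had means of 8410 and 8385 CPM at 24 months and 7184 and 7238 CPM at 6 months. Of its 12 hairpins 7 were called lower and 1 higher, so the sum hides falls of most of its members. The ranges of all these lists overlapped between the ages, and their part in the result was not tested.

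At 42 against 6 months miR-203b also fell, with means of 22985 and 33803 CPM. The log2 change was -0.56 ± 0.17 (SE, adjusted p = 0.0186 in edgeR), or 0.68 times the level (95% interval 0.53 to 0.87 times), and the ranges did not overlap. Here 12.4% of all hairpins were called lower, and 9.3% had lower ranges without overlap. The pigment cell list was at 37132 ± 4732 CPM at 42 and 30903 ± 6696 CPM at 6 months and the neural list at 1981 ± 608 and 1570.4 ± 135 CPM. Means at 42 and 6 months were 34578 and 36509 CPM for the epithelial list without miR-203 and miR-205, and 3532 and 3957 CPM for leukocytes. They were 8595 and 9255 CPM for skeletal muscle, 35106 and 34912 CPM for mesenchyme, 7213 and 6279 CPM for endothelium and 2342 and 2305 CPM for the erythroid list. Of the 12 epithelial hairpins 6 were called lower and 1 higher. The ranges of all these lists overlapped, and their part in the result was not tested. The call was lost in some settings and without some single libraries. In edgeR it held with DESeq2 size factors (adjusted p = 0.0413), upper-quartile scaling (0.0182) and library size alone (0.0143). With hairpins above 2% of counts left out of the library size the change was -0.44 and was not called (adjusted p = 0.0854). With copies of each microRNA name summed the change was -0.40 (adjusted p = 0.125) and with copies averaged -0.49 (adjusted p = 0.0674). It was also not called without 6 months replicate 4 (change -0.50, adjusted p = 0.0514), 12 months replicate 1 (-0.46, 0.0506), 12 months replicate 3 (-0.46, 0.0504) or 42 months replicate 5 (-0.50, 0.0639). Nor was it called without 42 months replicates 1, 2 and 5 together, a set that was not planned (-0.59, adjusted p = 0.136).

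At 36 against 24 months miR-203b rose, with means of 32420.3 and 19651 CPM. The log2 change was 0.72 ± 0.17 (SE, adjusted p = 0.0209 in edgeR), or 1.65 times the level (95% interval 1.29 to 2.11 times). At this pair 2.33% of all hairpins were called higher and 7.75% had higher ranges without overlap. The skeletal muscle list was at 6522 ± 2543 CPM at 36 and 10729 ± 3304 CPM at 24 months (ranges 3350.3 to 9910.1 and 5053 to 13641). The epithelial list without miR-203 and miR-205 was at 31623.5 ± 7161 and 31363.5 ± 9572 CPM (22052 to 40162 and 20191 to 42253). Means at 36 and 24 months were 1509 and 2549 CPM for the erythroid list, 35513 and 41293 CPM for the mesenchymal list, 6967 and 8326 CPM for the endothelial list, 36214 and 40689 CPM for the pigment cell list and 1567 and 1695 CPM for the neural list. The leukocyte list was at 3741 ± 505 CPM at 36 months, where the libraries carry Tg(pu.1:GFP), and at 3029 ± 853 CPM at 24 months (3258 to 4516 and 2004 to 3878). At 6 months, without a transgene, that list was at 3957 ± 609 CPM. The ranges of all these lists overlapped, and their part in the result was not tested. The call was lost without 24 months replicate 1 (change 0.54, adjusted p = 0.0882), 24 months replicate 4 (0.65, 0.0629), 36 months replicate 3 (0.53, 0.106) or 36 months replicate 4 (0.65, 0.0607), and with the fit on the compared ages alone (0.65, adjusted p = 0.0775).

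Ordered by mean, miR-203b stood at 6, 36, 42, 12 and 24 months from high to low, and no neighbours in that order passed the test. The change at 36 against 6 months was -0.06 (95% interval -0.42 to 0.30), at 42 against 36 months -0.50 (-0.85 to -0.14, adjusted p = 0.0746), at 42 against 12 months 0.01 (-0.34 to 0.37) and at 24 against 12 months -0.21 (-0.57 to 0.14). At 12 against 6 months the change was -0.57 (-0.93 to -0.21) and narrowly missed the threshold (adjusted p = 0.0664, against 2.71% of hairpins called lower and 6.59% with lower ranges without overlap). It passed when p-values were adjusted over all 10 pairs of ages together (adjusted p = 0.0333), in DESeq2 (0.0377) and in limma-voom (0.0436). In edgeR it did not pass with DESeq2 size factors (adjusted p = 0.107), upper-quartile scaling (0.194) or library size alone (0.135). Nor did it with hairpins above 2% of counts left out of the library size (0.125) or copies summed (0.163). Without a single library its adjusted p was 0.0322 to 0.175.

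**Figure D2:**
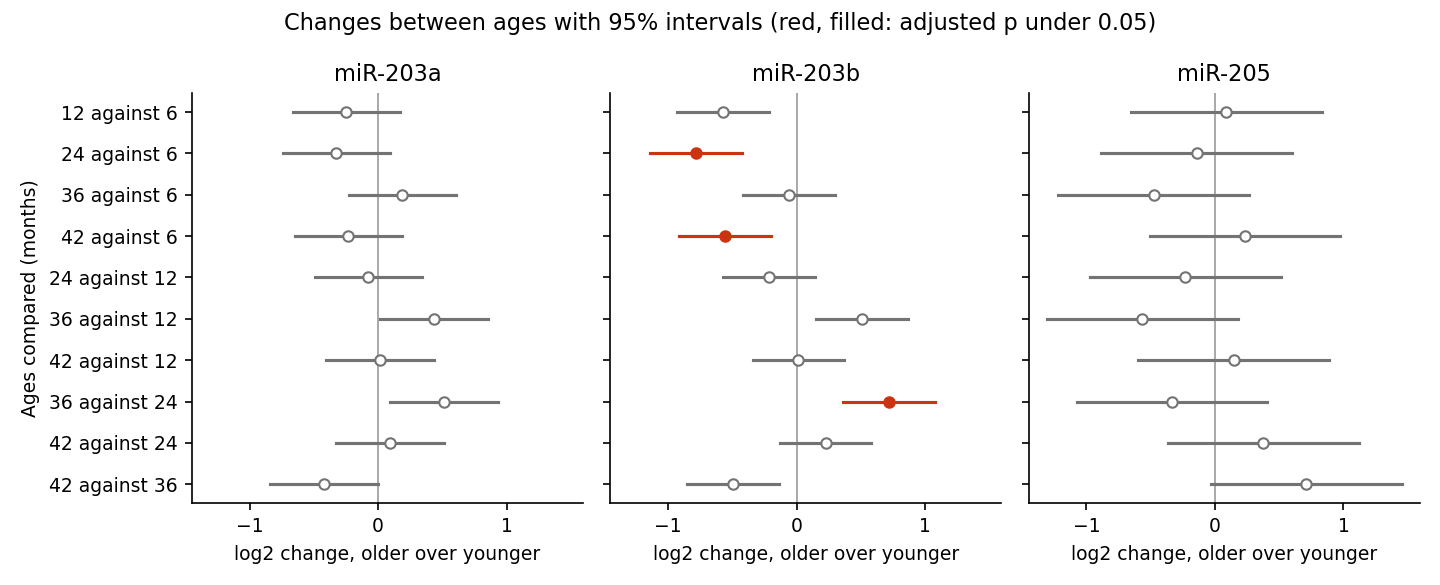
Log2 change, older over younger age, with its 95% interval for each of the 10 pairs of ages (rows) and each member (panels). For miR-203b 24 against 6, 42 against 6 and 36 against 24 months passed (red), with changes of -0.78, -0.56 and 0.72, and the wide intervals of miR-205 all include 0.

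MiR-203a varied with its paralogue from library to library, but none of its changes between ages passed the test. At the 3 pairs where miR-203b passed, the change of miR-203a had the same sign and was smaller (-0.32 at 24 against 6 months, -0.23 at 42 against 6 months and 0.51 at 36 against 24 months). At 36 against 6 months the signs differed (0.19 for miR-203a and -0.06 for miR-203b). Its libraries held 2273, 2882, 3044, 3659 and 3382 CPM at 6 months (mean 3048 ± 527, SD, n = 5). At 12 months they held 2459, 2553, 3588, 1772 and 2474 CPM (mean 2569 ± 651), and at 24 months 1491, 3134, 2572, 2175 and 2804 CPM (mean 2436 ± 633). The ranges of these 3 ages overlapped.

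At 36 months miR-203a was at 2443, 2900.02, 5169, 3263 and 3609 CPM (mean 3477 ± 1040.1). At 42 months it was at 2737, 2538, 2437, 2696 and 2565 CPM (mean 2595 ± 122), so that the libraries of this age differed by 1.12 times at most. The largest changes were 0.51 ± 0.20 log2 at 36 against 24 months (SE, 95% interval 0.09 to 0.93, adjusted p = 0.107 in edgeR) and 0.44 ± 0.20 at 36 against 12 months (0.02 to 0.85, adjusted p = 0.158). The change at 24 against 6 months was -0.32 ± 0.20 (-0.74 to 0.09, adjusted p = 0.269). Unadjusted p-values were under 0.05 for 3 of the 10 pairs, all of them with 36 months. Without 12 months replicate 3 the change at 36 against 12 months was 0.63 and passed (adjusted p = 0.0491).

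Across the 25 libraries the paralogues went up and down together. Levels of miR-203a and miR-203b, as log2(CPM + 1), correlated with Pearson's r = 0.84 (permutation p = 1e-05, the smallest that 100000 resamples can give, adjusted p = 7e-05 over 7 relations) and Spearman's rho = 0.75 (permutation p = 2e-05). Without the libraries farthest from the median of miR-203b, 24 months replicate 1 and 36 months replicate 3, r was 0.75. As deviations from the mean of each age r was 0.86, so libraries of a single age also went together. Reads of either paralogue assigned to the other could add to this correlation, and their part was not tested. Both values of a library share its scaling and depth, and a relation of either paralogue to the library total did not pass the test (r = -0.01 for miR-203a and 0.10 for miR-203b, rho = 0.08 and 0.26, permutation p = 0.942 and 0.631 for r).

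The balance between the paralogues nevertheless differed among ages. This ratio of reads, like the ratio to the miR-200 family below, was chosen after its values were seen, and no library scaling enters it. Per read of miR-203a, libraries of 6 months held between 9.63 and 12.8 reads of miR-203b (geometric mean 11.2). Those of 12 months held 7.22 to 9.88 (8.99), those of 24 months 7.27 to 8.995 (8.11), those of 36 months 8.36 to 10.03 (9.46) and those of 42 months 6.77 to 10.8 (8.77). The ratio was thus highest at 6 months, and the range of 24 months lay wholly below it.

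Among the 5 ages the ratio of miR-203b to miR-203a differed (permutation test of the Kruskal-Wallis statistic, 100000 resamples, p = 0.00383, at most 0.0114 without any single library). At 24 against 6 months it was 0.73 times as high (exact permutation test, two-sided, p = 0.00794, the smallest that 5 against 5 libraries allow, adjusted p = 0.0397 over 30 pairs of ages and ratios). The pairs of 12, 36 and 42 against 6 months had ratios of 0.81, 0.85 and 0.79 times and did not pass (adjusted exact permutation p = 0.0596, 0.0649 and 0.0649). The uncertain assignment of reads between the paralogues touches these values directly and was not tested.

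MiR-205 spread widely among libraries of a single age, and no difference between ages passed the test. At 6 months it was at 78820.2, 69412, 38977, 60434 and 54838 CPM (mean 60496 ± 15086, SD, n = 5). At 12 months it was at 102544, 60761, 48305, 43465 and 66734 CPM (mean 64362 ± 23297), and at 24 months at 32128, 60859, 37427, 51352 and 92428 CPM (mean 54839 ± 23876). A single library was high at 12 and again at 24 months, and the ranges overlapped.

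At 36 months miR-205 was at 34072, 40459, 43170.3, 39888 and 59794 CPM (mean 43477 ± 9705), the lowest mean of the 5 ages. At 42 months it was at 63354, 169039, 43513, 45394 and 34406 CPM (mean 71141 ± 55724). The value of 42 months replicate 2 was the highest of all 25 and came from the shallowest library. Without it the other 4 libraries of 42 months averaged 46667 ± 12115 CPM, and the highest mean of the ages became the second lowest.

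MiR-205 did not pass at any of the 10 pairs of ages in edgeR, DESeq2 or limma-voom. The smallest unadjusted p was 0.0606, at 42 against 36 months, with a change of 0.71 ± 0.36 log2 (SE, 95% interval -0.03 to 1.46), which was 0.09 without 42 months replicate 2. The change at 24 against 6 months was -0.14 ± 0.36 (95% interval -0.88 to 0.60), a range of 0.54 to 1.52 times. At 42 against 6 months it was 0.23 (-0.51 to 0.98), and -0.40 without 42 months replicate 2. In order of means miR-205 stood at 42, 12, 6, 24 and 36 months from high to low, and no neighbours in that order passed the test. The interval at 24 against 6 months includes the change of miR-203b at that pair (-0.78). Those at 42 against 6 months and at 36 against 24 months (-1.08 to 0.41) do not include its changes of -0.56 and 0.72. The error of the miR-203b changes is left out here, and the interval at 42 against 6 months includes 42 months replicate 2. Within libraries, miR-205 per read of summed miR-203a and miR-203b did not pass at either pair. The exact permutation test gave an adjusted p of 0.271 at 42 against 6 months and 0.0596 at 36 against 24 months.

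The spread of miR-205 was large beside that of other microRNAs of skin. The SD of log2(CPM + 1) within an age, pooled over ages, was 0.57 for miR-205, 0.33 for miR-203a and 0.28 for miR-203b, with a median of 0.30 over the 168 hairpins with a mean of at least 100 CPM. Of these hairpins 15 had a larger SD than miR-205, 63 a larger one than miR-203a and 97 a larger one than miR-203b. Without 42 months replicate 2 the SD of miR-205 was 0.44, and 25 hairpins had a larger one. Within an age the highest library of miR-205 held between 1.75 times (36 months) and 4.91 times (42 months) the lowest, or 1.84 times at 42 months without replicate 2.

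**Figure D3:**
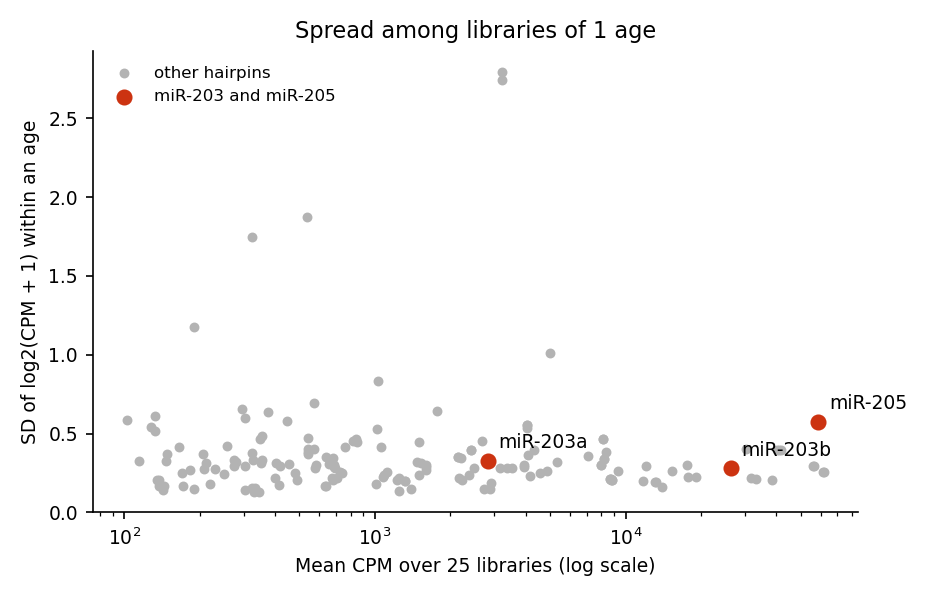
SD of log2(CPM + 1) among libraries of 1 age, pooled over the 5 ages, against mean CPM on a log axis, for 168 hairpins. MiR-205 (SD 0.57) lies above nearly all hairpins of similar level, and miR-203a (0.33) and miR-203b (0.28) lie among the others.

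The ratio of miR-205 to miR-203 within a library, with miR-203a and miR-203b summed, differed among the ages (permutation test of the Kruskal-Wallis statistic, 100000 resamples, p = 0.00665, at most 0.0197 without any single library). Per read of miR-203 there were between 1.20 and 2.50 reads of miR-205 at 6 months (geometric mean 1.61), 1.64 and 4.20 at 12 months (2.45) and 1.52 and 3.65 at 24 months (2.37). At 36 months there were between 0.893 and 1.57 (1.21) and at 42 months between 1.73 and 5.63 (2.34). The ratio was lowest at 36 months, whose range lay wholly below those of 12 and 42 months.

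By pair of ages the ratio at 36 months was 0.49 times that at 12 months, and the ratio at 42 months was 1.93 times that at 36 months (exact permutation p = 0.00794 each, adjusted p = 0.0397). Without 42 months replicate 2 the ratio at 42 months was 1.55 times that at 36 months (exact permutation p = 0.0159, the smallest that 4 against 5 libraries allow). These pairs were added after the data were seen. At 24 against 6 months the ratio was 1.47 times as high and did not pass (exact permutation p = 0.0952, adjusted p = 0.179). Without 6 months replicate 1 or 24 months replicate 3 the unadjusted exact permutation p was 0.0317 or 0.0476, which is no call here, since among the 30 pairs a p of 0.0159 had an adjusted p of 0.0596. With miR-203a alone as denominator the difference among ages did not pass (permutation p = 0.0869), and with miR-203b alone it did (p = 0.00532). Most reads of the summed denominator are of miR-203b, so the test with miR-203b alone nearly repeats that of the sum and adds no separate support.

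**Figure D4:**
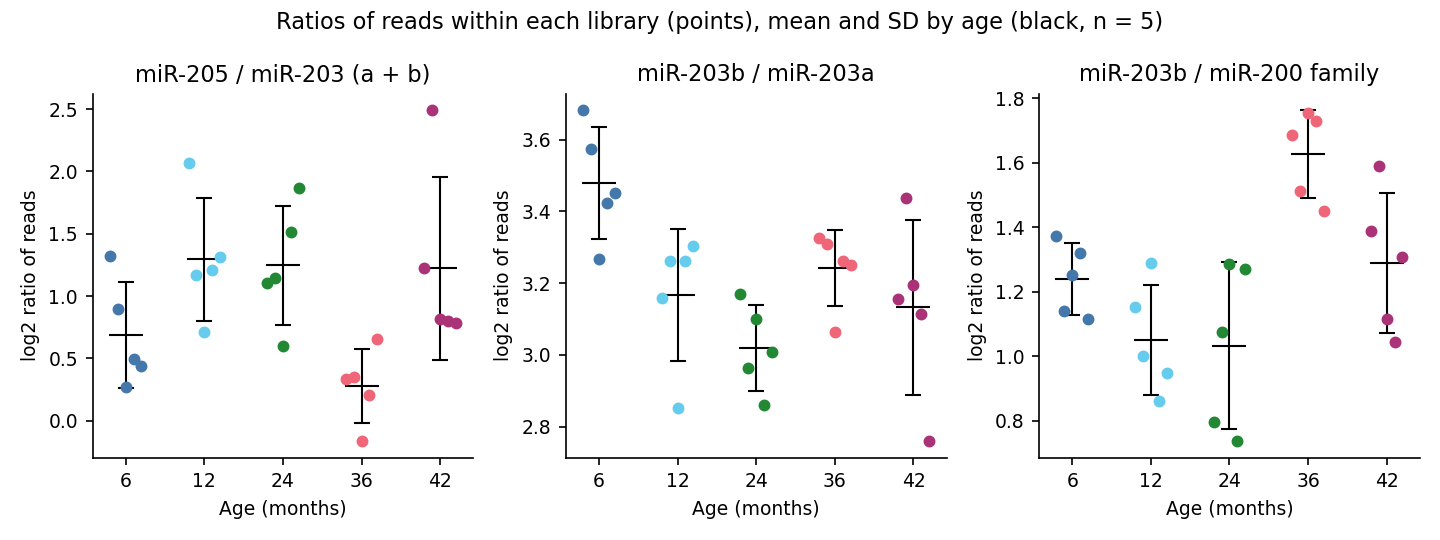
Log2 ratio of reads within each of 25 libraries against age in months, for miR-205 to miR-203, miR-203b to miR-203a and miR-203b to the miR-200 family, with the mean and SD of each age (n = 5). The first ratio is lowest at 36 months, the second highest at 6 months and the last highest at 36 months.

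Across all 25 libraries a relation of miR-205 to miR-203 did not pass the test (r = 0.21, permutation p = 0.316, rho = 0.18, permutation p = 0.386, r = 0.17 without 24 months replicate 1 and 36 months replicate 3). As deviations from the mean of each age the correlation was r = 0.48 (permutation p = 0.0153, adjusted p = 0.0357 over 7 relations) and rho = 0.48. Without 42 months replicate 2 it was r = 0.45 (unadjusted permutation p = 0.0257). Both permutations moved deviations freely across ages and took no account of the age means already removed. Their p-values are therefore too small to an unknown degree, and the correlation of deviations is given as a description and not as a call. Most reads of the sum are of miR-203b, so the sum follows miR-203b by construction. For single paralogues r of deviations was 0.50 with miR-203b and 0.20 with miR-203a (0.47 and 0.29 without that library). The difference between these values was not tested. The relation of miR-205 to the library total did not pass the test (r = -0.27, permutation p = 0.192, rho = 0.14), and r was 0.21 without 42 months replicates 2 and 4, the libraries farthest from the median total.

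**Figure D5:**
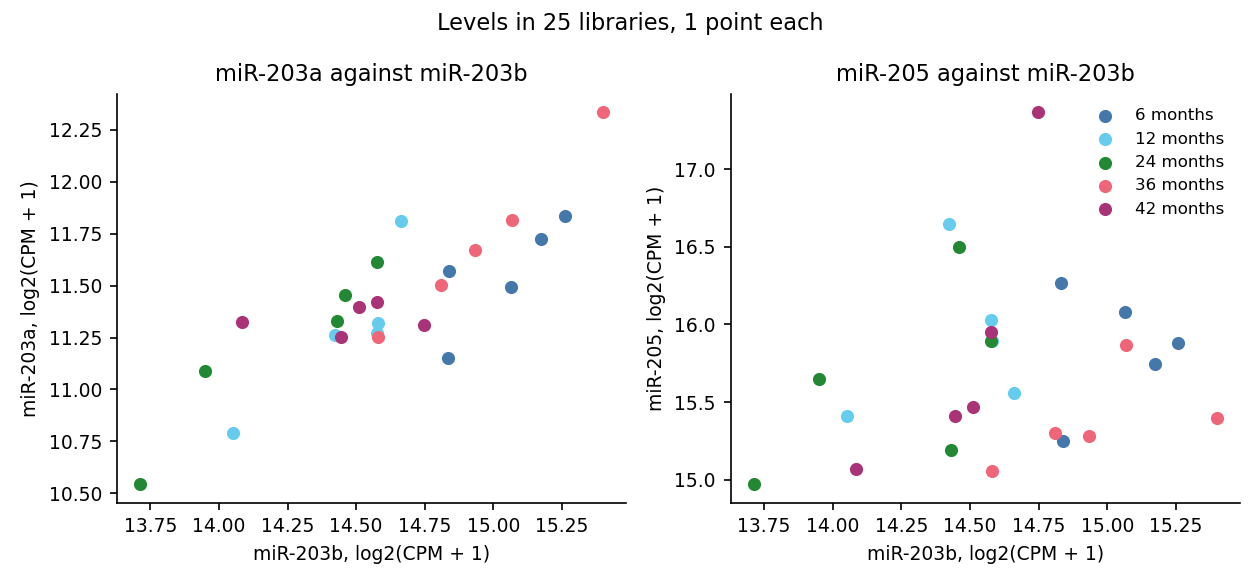
Levels of miR-203a (left) and miR-205 (right) against miR-203b, each as log2(CPM + 1), in 25 libraries with the age given by colour. MiR-203a rises with miR-203b (r = 0.84), and miR-205 scatters widely about it (r = 0.22).

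The microRNAs most and least like miR-203 and miR-205 are given here as a description over 25 libraries that share depth and scaling. Among 137 other names with a mean of at least 100 CPM, the closest to miR-203b after miR-203a were miR-200c (r = 0.75), miR-460 (0.73), miR-141 (0.72) and miR-200a (0.71). The closest to miR-203a after miR-203b were miR-141 (0.55), miR-200a (0.53), miR-200c (0.51) and miR-429a (0.51). MiR-200, miR-141 and miR-429 form the epithelial miR-200 family. The least alike were the muscle microRNA miR-133b (-0.61 for miR-203b and -0.65 for miR-203a), miR-132 for miR-203b (-0.64) and miR-22b for miR-203a (-0.71).

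The closest to miR-205 were miR-30d (r = 0.83), miR-22a (0.77), miR-184 (0.69), miR-92a (0.69) and miR-182 (0.67). MiR-184 is known from cornea and other surface epithelia, and miR-182 from sensory cells. The least alike were miR-101a (-0.78) and miR-458 (-0.72). Part of this order rests on 42 months replicate 2. Without it the closest to miR-205 over 24 libraries were miR-130b (0.81), miR-139 (0.79), miR-30d (0.75), miR-22a (0.75) and miR-181b (0.69). MiR-182 (0.63), miR-184 (0.60) and miR-92a (0.55) then ranked 9, 12 and 18. For miR-203b r changed by little without it, but miR-454a (0.76) took the place of miR-200a (0.72) among the 5 closest, and for miR-203a miR-184 (0.51) took that of miR-200c (0.51). Over all 25 libraries no name was among the 5 closest to both miR-205 and a miR-203 paralogue. Lists of 5 from 137 names can easily share none by chance, so no difference between the members is read from this.

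Most of the miR-200 family fell beside miR-203b at 24 against 6 months, but at 36 months miR-203b stood higher relative to the family than at 6, 12 or 24 months. Of the 12 other epithelial hairpins, 7 were lower and 1 was higher at 24 against 6 months, where 16.3% of all hairpins were called lower and 8.91% higher. The median log2 change of the 12 was -0.53, against 0.05 over all hairpins tested. The lower ones were miR-200a, miR-200b, miR-200c, miR-141, miR-429a, miR-182 and miR-183, with changes from -0.66 for miR-429a to -0.50 for miR-183. Most of these belong to the miR-200 family, and the 12 hairpins carry 11 names, since the miR-184 hairpins are copies. The hairpins are thus not independent, and their counts are a description beside the shares of all hairpins. MiR-429b, the low-abundance member of the family at 29.8 CPM on average, changed by -0.32 and did not pass (adjusted p = 0.335). MiR-31, known from activated keratinocytes, was the higher one, with means of 167 CPM at 24 months and 49.7 CPM at 6 months. The most abundant of the list, miR-184-2 and miR-184-1, changed by 0.23 ± 0.28 and 0.21 ± 0.28 (SE) and did not pass (adjusted p = 0.612 and 0.648). At 42 against 6 months 6 of the 12 were lower (12.4% of all hairpins) and miR-31 was higher (11.6%).

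At 36 against 24 months, where miR-203b rose by 0.72 log2, the median change of the 12 hairpins was 0.05, against 0.03 over all hairpins. MiR-200c changed by 0.16 (adjusted p = 0.519), miR-429a by 0.26 (0.378) and miR-200a by 0.14 (0.627). Within libraries, miR-203b per read of the summed miR-200 family differed among the ages (permutation p = 0.00118, at most 0.0042 without any single library). As stated above, this ratio was chosen after its values were seen, which no adjusted p given here covers. It ranged from 2.74 to 3.38 at 36 months, against 1.67 to 2.44 at 24 months, 1.82 to 2.45 at 12 months and 2.17 to 2.59 at 6 months, without overlap. The ratio at 36 months was 1.51 times that at 24 months, 1.49 times that at 12 months and 1.31 times that at 6 months (exact permutation p = 0.00794 each, adjusted p = 0.0397). At 42 months it ranged from 2.06 to 3.01, and was 0.79 times that at 36 months, which did not pass (exact permutation p = 0.0317, adjusted p = 0.0793). Without 42 months replicate 2 it ranged from 2.06 to 2.62, below the range of 36 months. It was then 0.75 times that at 36 months (unadjusted exact permutation p = 0.0159, the smallest that 4 against 5 libraries allow). At 24 against 6 months the ratio was 0.87 times as high and did not pass (exact permutation p = 0.151, adjusted p = 0.238). Libraries of 36 months alone carried Tg(pu.1:GFP), so age and transgene cannot be told apart in these comparisons.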

How the data were processed

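Small-RNA libraries of zebrafish skin (25, in 5 age groups taken from the age label) were prepared from total RNA by a small-RNA kit, per the labels' protocols. The submitters' processing notes name BWA 0.7.12-r1039, SAMtools 1.3.1-9, Trimmomatic 0.36 and CASAVA 1.8.4 with no role or order. How reads were counted, on which hairpin reference and genome build, is not stated in any source used. Deposited values were raw counts per hairpin (38 of 346 hairpins without a count in any library), and a check found whole numbers only and totals that differed. Depth ranged from 683884 to 5206505 reads, and counting errors cover counting only. Replicates were numbered in record order, which has no meaning.

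Counts were analysed with edgeR 4.0.16 in R 4.3.3 (TMM scaling, filterByExpr with minimum count 10, quasi-likelihood F tests, Benjamini-Hochberg adjustment over 258 hairpins, threshold 0.05), tested on simulated data. All 25 libraries entered each fit. Standard errors were derived from each change and its F statistic. Ratios and correlations were tested by permutation in SciPy 1.17.1, exactly for 5 against 5 libraries. Alternatives were 4 scalings, 2 filters, DESeq2 1.42.0, limma-voom (limma 3.58.1), robust estimation, copies summed or averaged, other codings of age, a transgene term, subsets of ages and leaving out each library. Named microRNAs were all members, the 5 most and 2 least alike names of each, and epithelial hairpins that passed in the trend or were among the 3 most abundant. The other epithelial hairpins lower at 24 against 6 months, and miR-429b, were named after their values were seen. The members and lists were chosen with earlier results of these data known.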

Additional observations from a re-analysis of the deposited data

Results flagged for a closer look

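MiR-205 in 42 months replicate 2 stood apart from the other libraries of its age, with 169039 CPM against 63354 CPM in the next highest and 34406 CPM in the lowest. Taken on CPM and not on its log2, where a high value stands out less, the gap was 0.785 of the range of the 5 libraries. That is above Dixon's 95% critical value of 0.71. It was the only flag among 15 groups (3 members at 5 ages), and chance flags about 1 group in 20. In the same library miR-203a (2538 CPM) and miR-203b (27502 CPM) lay within and just above the ranges of the other 42-month libraries, which were 2437 to 2737 CPM and 17365 to 24404 CPM.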

How the results depend on the processing

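The call of miR-203b among ages and its fall at 24 against 6 months held in all settings run and without each library (change -0.86 to -0.61). Its change at 42 against 6 months was not called with copies summed (-0.40), copies averaged (-0.49), hairpins above 2% of counts left out of the library size (-0.44) or without 42 months replicates 1, 2 and 5 together (-0.59), and was -0.65 to -0.46 without each library. At 36 against 24 months it was not called with upper-quartile scaling (0.60), hairpins above 2% left out (0.65), copies averaged (0.64) or only the compared ages (0.65), and was 0.53 to 0.82 without each library. At 12 against 6 months it was called with DESeq2 (-0.55), limma-voom (-0.58), only the compared ages (-0.57), adjustment over 10 contrasts (-0.57) and without the 3 libraries of 42 months (-0.57), and was -0.65 to -0.48 without each library, called without 42 months replicate 5 (-0.59). At 36 against 12 months it was called at a minimum mean of 100 CPM (0.55) and DESeq2 (0.50), and was 0.40 to 0.61 without each library, called without 12 months replicate 3 (0.61), 36 months replicate 1 (0.60) or 36 months replicate 2 (0.55). It was called at 42 against 36 months when hairpins needed a mean of 100 CPM (-0.59), and its slope with 6 and 24 months only (-0.45). The cause was not tested.

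The remaining reversed values did not pass, either as reported or when reversed. At 36 against 6 months miR-203b changed by 0.024 at a minimum mean of 100 CPM and 0.033 with copies summed (-0.19 to 0.027 without each library). At 42 against 12 months it changed by -0.16 with upper-quartile scaling and library size alone, -0.044 at a minimum mean of 100 CPM and -0.028 without the 3 libraries (-0.075 to 0.12), and its slope without the 42-month group was 5.3e-05. The slope of miR-203a was -0.013 with upper-quartile scaling, -0.0065 with library size alone, -0.00037 with a transgene term and -0.14 with 6 and 24 months only (-0.024 to 0.063 without each library). At 42 against 12 months miR-203a changed by -0.16 with upper-quartile scaling and library size alone, -0.037 at a minimum mean of 100 CPM and -0.034 without the 3 libraries (-0.094 to 0.23). At 42 against 24 months it changed by -0.091 with upper-quartile scaling and -0.013 with library size alone (-0.13 to 0.18), and at 24 against 12 months by 0.0016 with copies averaged (-0.19 to 0.14). Without each library it changed by -0.00095 to 0.29 at 36 against 6 months. The change of miR-203a at 36 against 12 months was never reversed (0.26 to 0.63 without each library). It was called in edgeR without 12 months replicate 3 (0.63, adjusted p = 0.0491). The slope of miR-205 was 0.010 with hairpins above 2% left out, 0.019 with copies summed, 0.0057 with copies averaged and 0.00090 with age as rank (-0.18 to 0.040 without each library). At 24 against 6 months miR-205 changed by 0.0027 with upper-quartile scaling, 0.015 with copies summed and 0.015 with copies averaged (-0.35 to 0.073). At 42 against 12 months it changed by -0.059 with upper-quartile scaling, -0.057 with limma-voom, -0.046 with library size alone and -0.55 without the 3 libraries (-0.46 to 0.41). Without those libraries miR-205 changed by -0.47 at 42 against 6 months (-0.40 to 0.38 without each library) and -0.35 at 42 against 24 months (-0.33 to 0.55). At 12 against 6 months it changed by -0.088 to 0.20 and at 24 against 12 months by -0.41 to 0.018 without each library.

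The ratio of miR-205 to miR-203 among ages did not pass with miR-203a alone (permutation p = 0.0869), and at 24 against 6 months its log2 difference was 0.41 to 0.72 without each library. The correlation of miR-205 and miR-203 passed only as deviations from age means (r = 0.48), by a permutation that took no account of the removed means. Of 1527 alternatives run 1420 kept direction and side of the threshold. Most of them concern results that did not pass as reported, and many leave out a library of neither compared age. The total is thus no measure of how firm the called pairs are. At 24 against 6 months the median of all hairpins was 0.05 log2 in the fit as reported, 0.12 with DESeq2 size factors, 0.15 with library size alone and 0.18 with upper-quartile scaling. No paired analysis was possible because the labels give each library its own number and no number shared between ages.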

Other observations

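The microRNAs most like miR-205 were picked over 25 libraries that include 42 months replicate 2, where miR-205 is highest, so their levels in that library partly restate the choice and are given as a description. MiR-30d was at 13158 CPM there, against 4859.5 to 10175 CPM in the other libraries of 42 months. MiR-22a was at 50783 CPM (34427 to 46617 in the others), miR-184 at 29191 CPM (13564 to 18361) and miR-92a at 49104 CPM (29248 to 38301), each the highest of all 25 libraries. MiR-182 was at 7680 CPM (4314 to 4905 in the others), and 2 of the 25 libraries were higher. Of the microRNAs least like miR-205, miR-458 was at 1102 CPM, below the 1338 to 2504 CPM of the other libraries of that age, and miR-101a at 5516 CPM was within their range. The summed level of the epithelial list without miR-203 and miR-205 was 46860 CPM in this library, the highest of all 25 (29575 to 34813 CPM in the other libraries of 42 months). Most of that sum was miR-184 and miR-182, picked above for their likeness to miR-205. The sum thus largely restates that choice and is no separate sign of more epithelium. The skeletal muscle list at 12726 CPM was the highest of its age. The mesenchymal list at 28546 CPM, the leukocyte list at 2836 CPM, the endothelial list at 4884 CPM and the erythroid list at 1316 CPM were the lowest of their age. The pigment cell list at 35751 CPM and the neural list at 1796 CPM lay within the range of the others. Their part in the level of miR-205 was not tested.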
